A study of Mus musculus with 12 samples.

Results

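The genes described here are the heat shock proteins, the other chaperones and the folding enzymes that work with them, in CD4 and CD8a T cells of mouse spleen. They were taken by name: HSP70, HSP90, HSP110, HSP60 and HSP10 genes, DNAJ co-chaperones, the CCT chaperonin, prefoldin, FKBP and cyclophilin prolyl isomerases, protein disulfide isomerases with calreticulin, and the co-chaperones Stip1, Ahsa, St13 and Bag. The name rule found 54 of the 3684 genes listed in the deposited tables. For CD4 cells it found 51 of 2999 genes and for CD8a cells 44 of 2851, with 41 members in both. The tables hold genes that the authors selected on these same mice, each listed for 1 or more comparisons, and the rule of that selection is not given. Chaperones outside them were not analysed here, among them Tcp1, Canx, Hspa5, Hspa1a and the Hsf genes.

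Spleens came from 12 mice, 3 in each of 4 groups. The KO stress group was S100a9-/- mice on C57Bl6/J after 10 days of repeated social defeat, a psychosocial stress in which an aggressive mouse repeatedly defeats the subject, and the WT stress group was C57Bl6/J mice after the same paradigm. The KO control and WT control groups were S100a9-/- and C57Bl6/J mice without stress. All groups had 1 day of behaviour testing, and splenocytes were taken on day 12 for single-cell RNA sequencing of transcript 3′ ends. No source used here gives the mice's age or sex or how the S100a9 allele was made, and genotype is used as labelled. S100a9 encodes a calcium-binding protein of neutrophils and monocytes.

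Chaperones bind unfolded protein and release it folded, driven in most families by ATP. HSP70 takes up nascent and damaged proteins with the help of DNAJ proteins and nucleotide exchange factors such as HSP110, and passes some of them through Stip1 to HSP90, which holds kinases and steroid receptors, the glucocorticoid receptor among them, in an active state. The ring-shaped CCT chaperonin folds actin and tubulin delivered by prefoldin, HSP60 with HSP10 does this work inside mitochondria, and a separate set with Hsp90b1, calreticulin and the disulfide isomerases serves the endoplasmic reticulum. In cells generally the factor HSF1 raises cytosolic heat shock genes through heat shock elements, and ATF6 and XBP1 raise the endoplasmic reticulum set through ER stress elements.

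Values are the authors' average expression per mouse over the cells of one type, on a linear scale. The number of cells and the depth behind each average are unknown, the values carry no correction for transcript length, and a change in the mix of cells within a type cannot be told apart from a change per cell. The listed genes summed to 8120 to 8225 in stressed and 7367 to 7562 in control mice in CD4 cells, and to 8102 to 8270 against 7419 to 7615 in CD8a cells. Cd4 was 1.66 to 2.47 in stressed and 2.58 to 3.01 in control CD4 cells, where Cd8a did not exceed 0.269. Cd8a was 3.38 to 4.16 in stressed and 4.35 to 5.27 in control CD8a cells. S100a9 itself was at or under 0.111 in every mouse and not absent in KO mice. The labels do not say which part of S100a9 is deleted, so reads of its 3′ end do not check the genotype. Among markers of other cells, all 7 B cell genes listed in CD4 and all 8 in CD8a cells were lower after stress (limma, adjusted p under 0.05, stress averaged over genotypes). They summed to 3.42 to 7.08 in stressed and 3.44 to 11.2 in control CD4 cells, and to 4.60 to 6.91 in stressed and 7.0 to 13.7 in control CD8a cells. In CD4 cells the sums averaged 3.80 in KO stress and 5.26 in WT stress mice, against 8.74 in KO control and 5.87 in WT control mice. All 7 were called lower in KO mice there, while the authors' list for wild-type mice held 0 of them. Genes of the natural killer list were higher in 3 of 4 (Gzma, Klrd1 and Nkg7) in CD4 and in 2 of 3 (Klre1 and Nkg7) in CD8a cells. Klrd1 and Nkg7 were also higher in CD8a than in CD4 cells. The averages cannot tell whether T cells or other cells carried these genes. Sums of this list in stressed against control mice were 2.1 to 6.56 against 1.11 to 2.30 in CD4 and 8.63 to 10.9 against 7.13 to 8.99 in CD8a cells. Myeloid genes were higher in 3 of 7 and 3 of 6, with sums, in the same groups and cells, of 1.25 to 1.73 against 0.824 to 1.94 and of 1.02 to 1.13 against 0.636 to 1.12. Of the erythroid genes 0 of 4 and 1 of 4 were higher, with sums of 0.197 to 5.08 against 0.0891 to 5.52 and of 0.228 to 15.9 against 0.0342 to 2.77. By limma all 4 were higher in KO than in WT mice in CD4 cells without stress and in CD8a cells under stress. For CD4 cells under stress and CD8a cells without it, 0 of 4 were called. The CD4 sums were 0.627 to 5.52 in KO control and 0.0891 to 0.141 in WT control mice. Among 5 listed myeloid genes Fcer1g, Lyz2 and Tyrobp were higher in KO control CD4 cells, and 0 lower. The neutrophil genes Ngp and Camp were at 0 in some mice, no B cell or natural killer marker was at 0 in any, and no plasma cell marker was listed. The part of these cells in the results below was not tested.

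After social defeat, more chaperone genes rose than fell in T cells. Hspa8 rose most in both cell types, Hspe1, Dnajc15 and Pfdn5 rose in both as well, and Dnajc5 fell most. With the stress effect averaged over genotypes, 16 of 51 members were higher and 3 lower in CD4 cells, where 25.3% of all 2999 listed genes were higher and 29.2% lower. In CD8a cells 14 of 44 members were higher and 2 lower, against 23.8% and 35.6% of 2851 genes. With the genotypes averaged, the share higher was thus a little above that of listed genes at large, and the share lower was smaller. In CD8a cells of KO mice alone the share higher was not above it, as given further on. The median log2 change averaged over genotypes was 0.15 over the members and 0.05 over all genes in CD4 cells, and 0.13 and 0.03 in CD8a cells. Without WT stress mouse 3 the member median was 0.11 in CD4 and 0.080 in CD8a cells, and without KO stress mouse 1 as well it was 0.075 and 0.046, beside 0.037 and 0.014 over all genes. The 2 cell types had 13 of their rising members in common, which is 81.2% of the CD4 and 92.9% of the CD8a calls. The same share over all listed genes was not computed, so the overlap is not read as particular to the members. CD4 and CD8a averages of a mouse come from the same library, so the cell types are not independent samples.

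**Figure D1:**
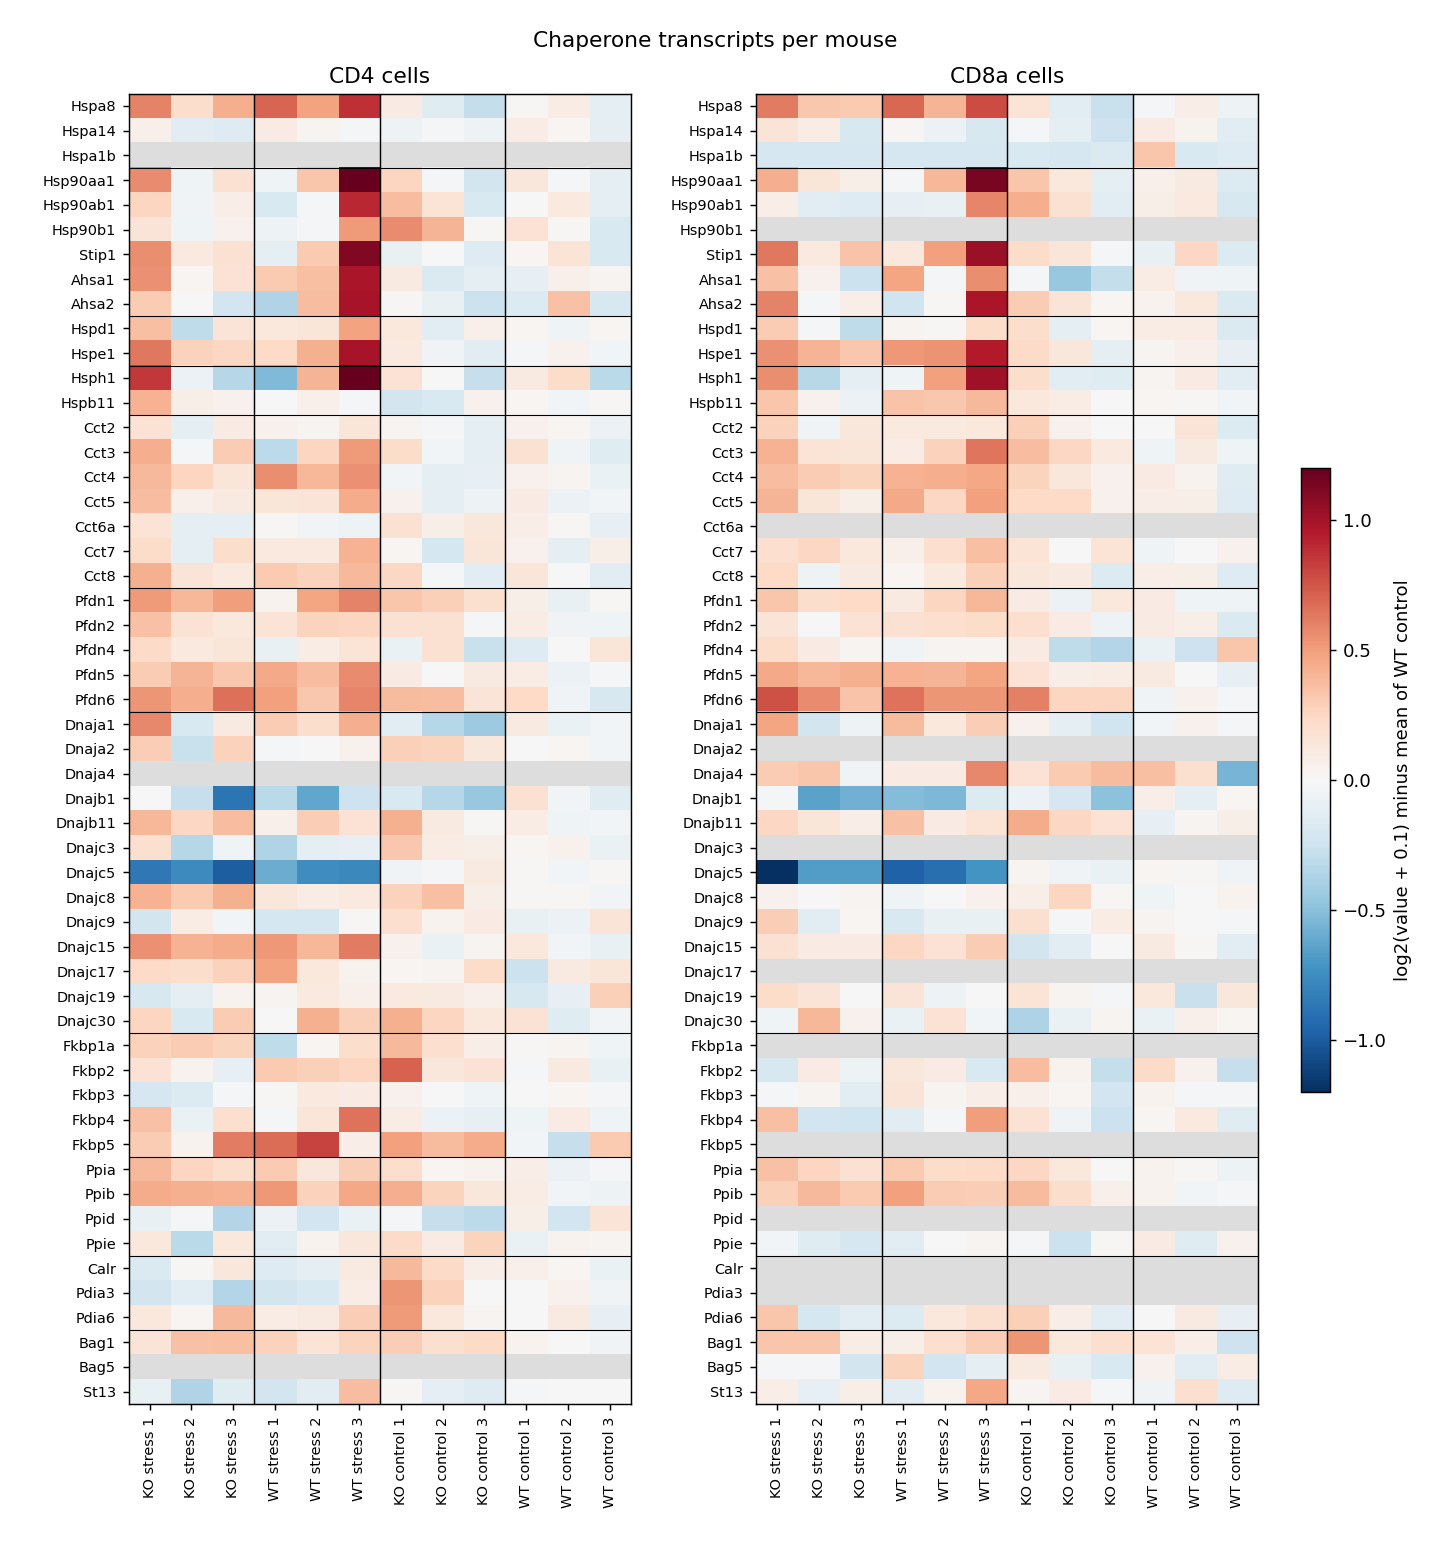
Each row is 1 member and each column 1 mouse, with 1 of the members not shown, for CD4 cells (left) and CD8a cells (right). Colour gives log2(value + 0.1) minus the mean of the 3 WT control mice, grey marks genes not listed for that cell type, and lines separate groups and gene families. Hspa8, Hspe1 and Pfdn5 are red in all stressed mice, Dnajc5 is blue in all 6, and the Hsp90aa1 and Hsp90ab1 rows are darkest in WT stress mouse 3.

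The constitutive HSP70 of the cytosol, Hspa8 (chr9:40800984-40810087, plus strand; mm10, as for all positions here), folds new proteins and strips clathrin from vesicles. Its CD4 values were 6.90, 5.25 and 6.19 in KO stress and 7.44, 6.36 and 8.43 in WT stress mice, against 4.86, 4.10 and 3.69 in KO control and 4.58, 4.84 and 4.21 in WT control mice. In CD8a cells they were 7.13, 5.79 and 5.77 in KO stress and 7.49, 6.16 and 8.03 in WT stress mice, against 5.17, 4.19 and 3.81 in KO control and 4.52, 4.89 and 4.43 in WT control mice. All 6 stressed mice lay above all 6 controls in both cell types. The log2 change averaged over genotypes was 0.61 ± 0.08 (SE) in CD4 and 0.56 ± 0.08 in CD8a cells (limma, adjusted p = 9.7e-06 and 2.6e-06). The ribosome-associated Hspa14 did not pass (0.01 ± 0.07 and 0.03 ± 0.08). Hspa1b, the HSP70 that heat induces, was listed in CD8a cells only and was near 0 in all but 1 mouse. It was listed at 0 in all 6 stressed mice, against 0.00179, 0 and 0.00204 in KO control and 0.0454, 0.00184 and 0.00352 in WT control mice.

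Hspe1 (chr1:55088132-55091307, plus strand) encodes HSP10, the lid of the mitochondrial HSP60 chamber. In CD4 cells it was at 4.39, 3.41 and 3.36 in KO stress and 3.33, 3.81 and 5.65 in WT stress mice, against 3.05, 2.73 and 2.54 in KO control and 2.78, 2.90 and 2.74 in WT control mice. The CD8a values were 5.18, 4.70 and 4.43 in KO stress and 5.08, 5.15 and 6.87 in WT stress mice, against 4.13, 3.85 and 3.22 in KO control and 3.59, 3.67 and 3.28 in WT control mice. Stressed and control mice did not overlap in either cell type, and WT stress mouse 3 was the highest of the 12 in both. The averaged log2 change was 0.48 ± 0.10 in CD4 and 0.51 ± 0.08 in CD8a cells (limma, adjusted p = 0.00098 and 6.6e-06). Hspd1, the HSP60 gene itself (chr1:55077835-55088243, minus strand), had log2 changes of 0.15 ± 0.10 and 0.02 ± 0.09 that did not pass (adjusted p = 0.22 and 0.87). It was 0.879 to 1.59, median 1.24, in the 6 stressed mice against 1.00 to 1.22, median 1.13, in the 6 controls, in CD4 cells. The 2 genes lie head to head, and their annotated ends share 112 bases. A difference between their stress effects was not tested.

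Most listed prefoldin subunits rose. Of its 5 listed subunits, 4 rose in CD4 and 3 in CD8a cells, and 0 fell in either, beside 25.3% and 23.8% of all listed genes higher. Pfdn5 (chr15:102326116-102331873, plus strand), also known as the MYC-binding protein MM-1, was at 6.30, 6.78 and 6.38 in KO stress and 6.98, 6.60 and 7.56 in WT stress mice, against 5.46, 5.11 and 5.48 in KO control and 5.42, 4.83 and 5.0 in WT control mice in CD4 cells. Its CD8a values were 6.59, 6.33 and 6.47 in KO stress and 6.42, 6.38 and 6.67 in WT stress mice, against 5.39, 5.04 and 5.09 in KO control and 5.15, 4.76 and 4.45 in WT control mice. The stressed mice were all above the controls in both cell types, with log2 changes of 0.37 ± 0.05 and 0.37 ± 0.05 (limma, adjusted p = 5.7e-06 and 6.1e-07). Pfdn6 was at 0.878, 0.812 and 0.966 in KO stress and 0.851, 0.748 and 0.914 in WT stress mice, against 0.779, 0.773 and 0.652 in KO control and 0.697, 0.556 and 0.492 in WT control mice in CD4 cells. In CD8a cells Pfdn6 was at 0.954, 0.820 and 0.685 in KO stress and 0.875, 0.795 and 0.798 in WT stress mice, against 0.842, 0.642 and 0.644 in KO control and 0.503, 0.545 and 0.514 in WT control mice. WT control mice were lowest on average in both cell types, and KO control mice lay between them and the stressed mice. The averaged changes of Pfdn6 were 0.35 ± 0.08 and 0.38 ± 0.08, and those of Pfdn1 0.29 ± 0.09 and 0.23 ± 0.07. Pfdn2 passed in CD4 cells (0.16 ± 0.06) and not in CD8a cells (0.11 ± 0.07, adjusted p = 0.16), and Pfdn4 in neither. The Pfdn2 call was lost without any 1 of 6 mice (adjusted p up to 0.11).

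The CCT chaperonin, to which prefoldin delivers actin and tubulin, had 3 of 7 listed subunits higher in CD4 and 2 of 6 in CD8a cells, with none lower. Of all listed genes 25.3% and 23.8% were higher. Cct4 (chr11:22990519-23003780, plus strand) had CD4 values of 1.62, 1.47 and 1.35 in KO stress and 1.83, 1.62 and 1.82 in WT stress mice, against 1.18, 1.11 and 1.12 in KO control and 1.26, 1.24 and 1.14 in WT control mice. The CD8a values of Cct4 were 1.49, 1.42 and 1.39 in KO stress and 1.54, 1.57 and 1.60 in WT stress mice, against 1.39, 1.26 and 1.18 in KO control and 1.22, 1.17 and 1.01 in WT control mice. The groups separated fully in CD4 cells, while in CD8a cells KO control mouse 1 lay level with KO stress mouse 3. The change was 0.42 ± 0.06 and 0.30 ± 0.06 (limma, adjusted p = 1.3e-05 and 0.00025). Cct5 rose by 0.23 ± 0.07 and 0.21 ± 0.07, and Cct8 by 0.26 ± 0.08 in CD4 cells. In CD8a cells Cct8 had 0.11 ± 0.07 and did not pass. The other subunits ranged between -0.09 for Cct6a and 0.18 for Cct3 in CD4 cells, without a call. The subunits sit in the ring in equal numbers, and differences between them were not tested.

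**Figure D2:**
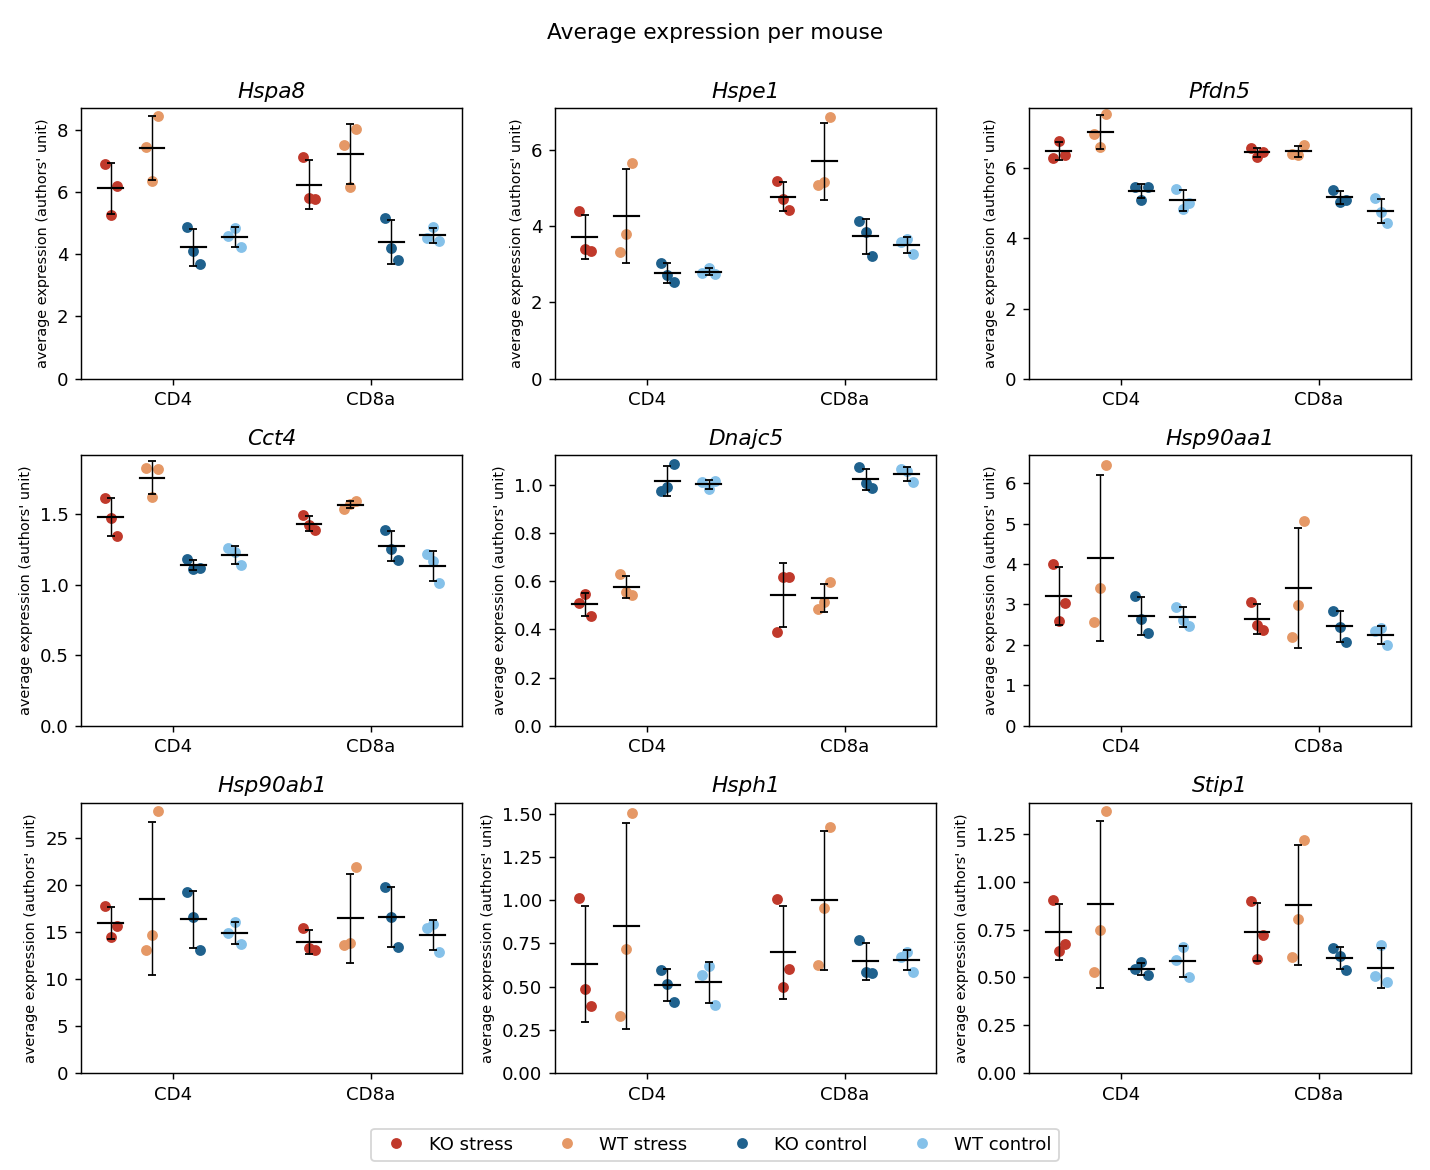
Average expression of 9 members in each mouse (points), with the mean (bar) and SD (whiskers, n = 3) of each group, CD4 cells on the left and CD8a cells on the right of each panel. The 6 stressed mice lie above the 6 controls for Hspa8, Hspe1 and Pfdn5 and below them for Dnajc5, while Hsp90aa1, Hsp90ab1, Hsph1 and Stip1 have 1 high mouse in the WT stress group.

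DNAJ proteins start the ATP cycle of HSP70, each at its own place in the cell, and they moved in both directions. Of the listed members, 2 of 12 rose and 2 fell in CD4 cells, and 1 of 10 rose and 2 fell in CD8a cells. Over all listed genes 25.3% rose and 29.2% fell in CD4 cells, and 23.8% and 35.6% in CD8a cells. The DNAJ counts are small, and a difference from listed genes at large was not tested. Dnajc5 (chr2:181520485-181555133, plus strand) is the cysteine string protein of secretory vesicles, and it had the largest change of any member. It was at 0.509, 0.548 and 0.454 in KO stress and 0.630, 0.556 and 0.544 in WT stress mice, against 0.974, 0.989 and 1.09 in KO control and 1.01, 0.981 and 1.01 in WT control mice in CD4 cells. In CD8a cells it was at 0.389, 0.618 and 0.619 in KO stress and 0.483, 0.513 and 0.595 in WT stress mice, against 1.07, 1.01 and 0.985 in KO control and 1.06, 1.06 and 1.01 in WT control mice. All 6 stressed mice were below all 6 controls in both cell types, with log2 changes of -0.80 ± 0.07 and -0.85 ± 0.09 (limma, adjusted p = 5.6e-08 and 1e-07). It was the only member called lower in all 4 comparisons of stressed with control mice, and its longest annotated transcript has 6578 bases. Long transcripts were common among all genes that fell: the median over the listed genes was 5157.5 bases for those lower, 1212.5 for those higher and 2001 for those not called in CD4 cells. Over the members these medians were 5141, 2252 and 2476.5 bases. Long members also rose in CD4 cells, Dnajc15 with 6193 and Dnaja1 with 5622 bases, and Fkbp3 with 6939 was not called. The part of length was not tested.

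Dnajc15 (chr14:77820681-77875125, minus strand), an inner mitochondrial membrane protein known in mouse CD8 T cells as a brake on respiration, rose. Its values in CD4 cells were 1.56, 1.41 and 1.44 in KO stress and 1.52, 1.39 and 1.64 in WT stress mice, against 1.07, 0.970 and 1.06 in KO control and 1.14, 1.00 and 0.961 in WT control mice. CD8a cells had 4.01, 3.78 and 3.77 in KO stress and 4.19, 3.99 and 4.38 in WT stress mice, against 3.01, 3.20 and 3.54 in KO control and 3.80, 3.56 and 3.22 in WT control mice. The groups did not overlap in CD4 cells but did in CD8a cells, where WT control mouse 1 exceeded KO stress mice 2 and 3. The change was 0.49 ± 0.06 in CD4 and 0.24 ± 0.05 in CD8a cells (limma, adjusted p = 4.5e-06 and 0.00066). Dnaja1, a general HSP40 of the cytosol, rose in CD4 cells (0.40 ± 0.10) and missed the threshold in CD8a cells (0.21 ± 0.09, adjusted p = 0.051).

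Dnajb1, the HSP40 that heat induces, was at 0.620, 0.370 and 0.392 in KO stress and 0.412, 0.404 and 0.552 in WT stress mice, against 0.596, 0.538 and 0.421 in KO control and 0.673, 0.581 and 0.646 in WT control mice in CD8a cells. The groups overlapped through KO stress mouse 1 and WT stress mouse 3, and the change of -0.28 ± 0.11 passed (limma, adjusted p = 0.032). In CD4 cells Dnajb1 had -0.23 ± 0.13 (adjusted p = 0.15). Dnajb1 and Dnaja1, both partners of cytosolic HSP70, thus had log2 differences of opposite sign in the same cells. Dnajc3, an endoplasmic reticulum co-chaperone also known as an inhibitor of the kinase PERK, was listed in CD4 cells only. It was 1.21 to 1.82, median 1.45, in the 6 stressed mice against 1.49 to 2.01, median 1.65, in the 6 controls. The groups overlapped, and the change of -0.21 ± 0.09 was just past the threshold (limma, adjusted p = 0.049). The Dnajb1 call was lost without any 1 of 8 mice (adjusted p up to 0.094), that of Dnajc3 without any 1 of a different set of 8 (up to 0.14), and both were lost with each mouse centred on its median gene. The remaining DNAJ genes, among them the spliceosome-associated Dnajc8 and the histone co-chaperone Dnajc9, were not called.

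Among prolyl isomerases 2 of 4 cyclophilins in CD4 and 2 of 3 in CD8a cells rose, and with the genotypes averaged the FKBPs were not called. The share of all listed genes that rose was 25.3% in CD4 and 23.8% in CD8a cells. Ppia (chr11:6415443-6419817, plus strand), cyclophilin A and the target of cyclosporin, had the largest deposited values of the members together with Hsp90ab1. In CD4 cells Ppia was at 19.7, 18.1 and 17.4 in KO stress and 18.8, 16.5 and 18.5 in WT stress mice, against 17.4, 15.3 and 15.5 in KO control and 15.9, 14.4 and 14.9 in WT control mice. In CD8a cells it was at 19.0, 17.9 and 16.9 in KO stress and 18.6, 17.3 and 17.5 in WT stress mice, against 17.8, 16.2 and 14.9 in KO control and 15.4, 15 and 14.3 in WT control mice. The increase was small and the groups overlapped by 1 KO control mouse, with log2 changes of 0.22 ± 0.05 and 0.20 ± 0.05 (limma, adjusted p = 0.0015 and 0.0017). Ppib, the cyclophilin of the endoplasmic reticulum, was at 3.74, 3.69 and 3.66 in KO stress and 3.94, 3.31 and 3.80 in WT stress mice, against 3.71, 3.28 and 3.00 in KO control and 2.90, 2.65 and 2.61 in WT control mice in CD4 cells. In CD8a cells Ppib was at 3.10, 3.33 and 3.17 in KO stress and 3.61, 3.14 and 3.12 in WT stress mice, against 3.32, 2.95 and 2.64 in KO control and 2.61, 2.48 and 2.5 in WT control mice. KO control mouse 1 reached the stressed range in both cell types. The change of Ppib was 0.29 ± 0.06 and 0.24 ± 0.06 (adjusted p = 0.00061 and 0.0016). None of the 5 FKBP genes in CD4 and of the 3 in CD8a cells was called for that effect, and by limma none had an unadjusted p under 0.05. Of all listed genes 58.9% in CD4 and 63.2% in CD8a cells had such a p. The changes of the FKBP genes ran between -0.03 and 0.22, and between -0.04 and 0.06.

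Fkbp5, which glucocorticoids induce and which restrains the glucocorticoid receptor on HSP90, was listed in CD4 cells only. It was at 0.402, 0.317 and 0.520 in KO stress and 0.546, 0.611 and 0.329 in WT stress mice, against 0.472, 0.428 and 0.452 in KO control and 0.297, 0.235 and 0.403 in WT control mice. Stressed and control mice overlapped, and the averaged change of 0.20 ± 0.13 did not pass (limma, adjusted p = 0.23). Within the wild type the change was 0.52 ± 0.19 and passed (adjusted p = 0.032), though WT stress mouse 3 lay at 0.329 beside 0.546 and 0.611 in the other WT stress mice. Fkbp2 was the other FKBP gene higher in wild-type CD4 cells (0.29 ± 0.11, adjusted p = 0.039), a call lost without any 1 of 5 mice (adjusted p up to 0.11). The Fkbp5 call was lost without WT stress mouse 1 or 2 or WT control mouse 1 or 2 (adjusted p up to 0.14), and with all genes listed for CD4 cells in the fit (adjusted p = 0.056).

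Calreticulin, the disulfide isomerases and Hsp90b1, the large folding machines of the endoplasmic reticulum, were not called higher after stress. Pdia3, a disulfide isomerase of glycoprotein folding and of MHC class I loading, was listed in CD4 cells only, at 1.64, 1.75 and 1.48 in KO stress and 1.63, 1.68 and 2.05 in WT stress mice, against 2.81, 2.34 and 1.92 in KO control and 1.91, 1.98 and 1.86 in WT control mice. KO control mouse 1 was highest and 5 of 6 stressed mice were below every control. The change was -0.30 ± 0.08 (limma, adjusted p = 0.0056). Calreticulin, its lectin partner, had -0.15 ± 0.07 in CD4 cells (adjusted p = 0.087), and Pdia6 had 0.06 ± 0.09 and -0.01 ± 0.10. Hsp90b1, the HSP90 of this compartment, was at 2.35, 2.03 and 2.19 in KO stress and 2.01, 2.08 and 3.04 in WT stress mice, against 3.17, 2.83 and 2.14 in KO control and 2.39, 2.12 and 1.84 in WT control mice in CD4 cells. KO control mice 1 and 2 and WT stress mouse 3 were the 3 highest, and the change was -0.07 ± 0.11 (adjusted p = 0.62).

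**Figure D3:**
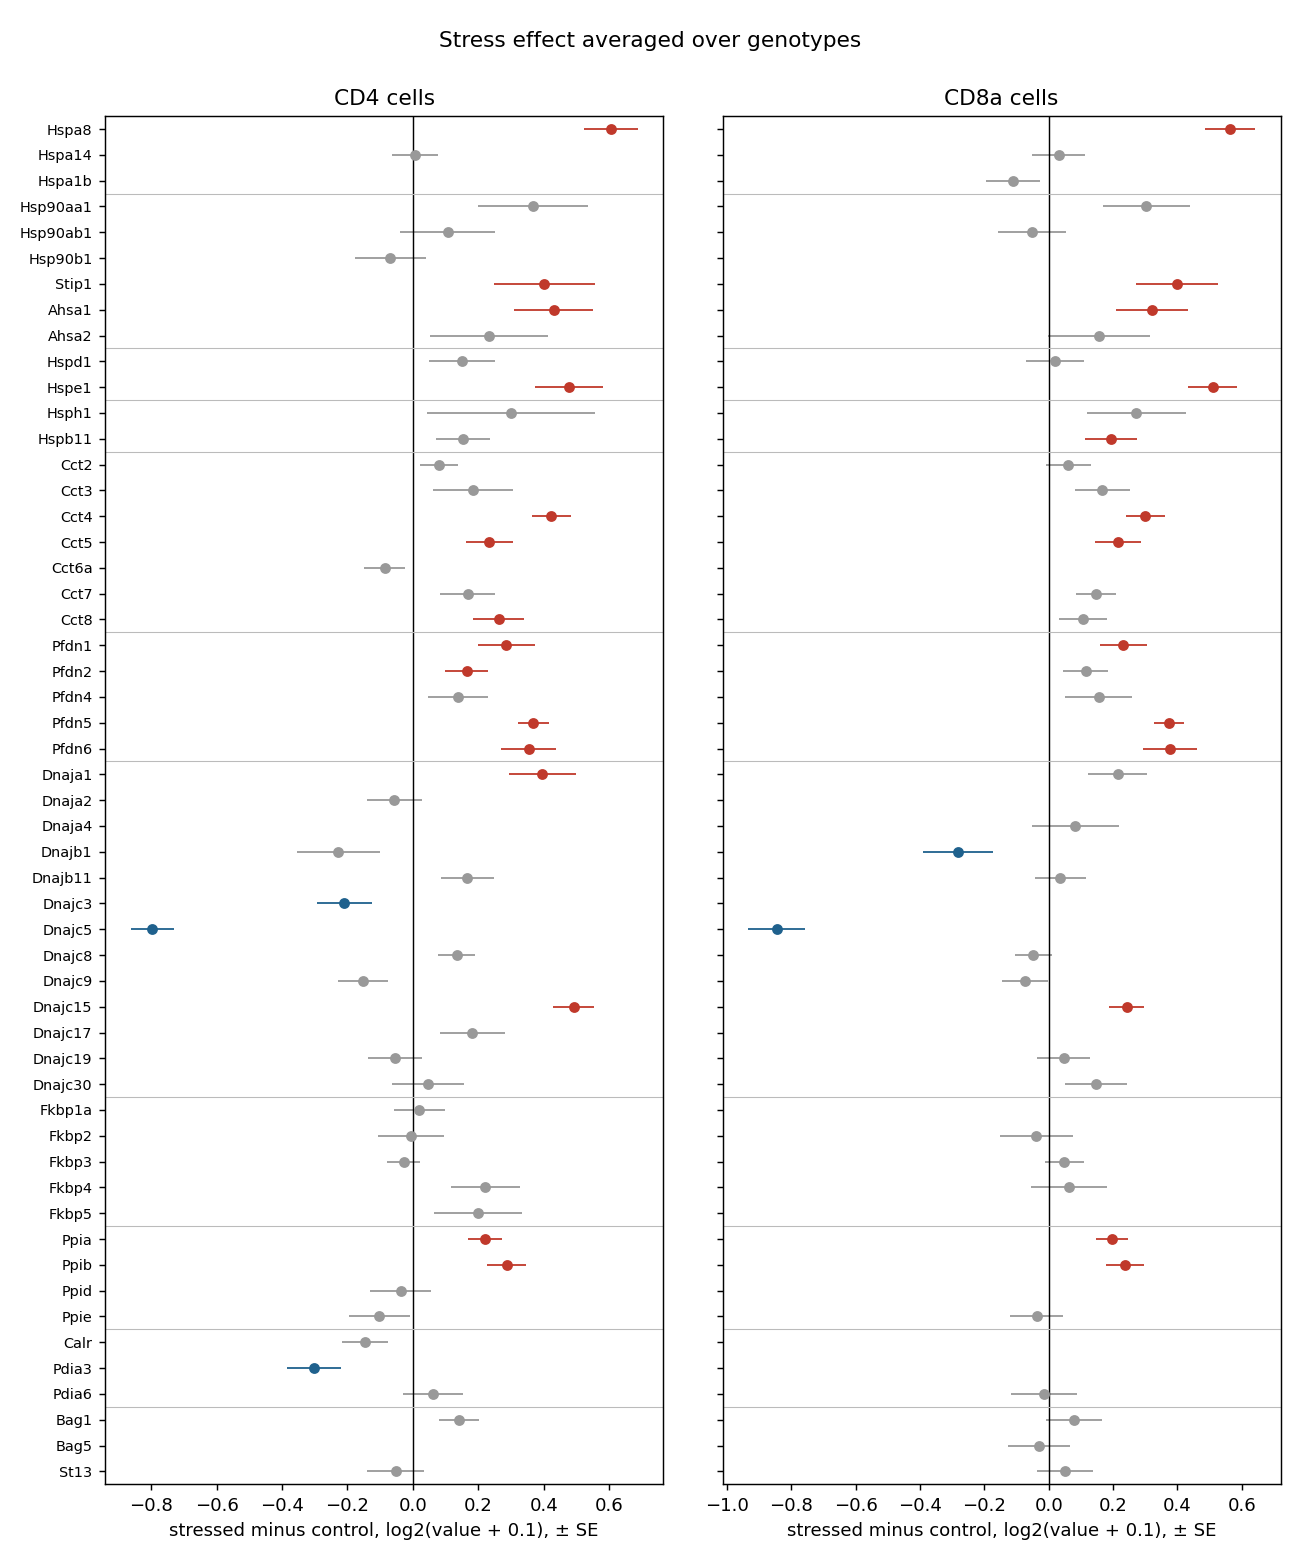
Stress effect averaged over genotypes for each member but 1 (stressed minus control, log2(value + 0.1), with SE from limma over 12 mice), CD4 cells left and CD8a cells right, with lines between families. Red marks members called higher, blue those called lower and grey those not called at an adjusted p under 0.05. Hspa8 has the largest rise at 0.61 and 0.56, and Dnajc5 the largest fall at -0.80 and -0.85.

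Promoter sequences from RefSeq (GRCm38.p6, the assembly of mm10) were searched for the elements of both pathways. The windows run from 250 bases before to 50 after a start site, and the table has windows for 43 of the 54 members. Members without one included Hspa8, Hsp90aa1, Hsp90ab1, Pfdn1, Cct4, St13, Ppie, Ppid, Dnajc5 and Dnajc30. The heat shock core GAANNTTC was in 9 of 56 member windows (16.1%) and in 7.86% of all 32851 windows, and TTCNNGAA in 6 (10.7%) and in 8.52%. Both cores read the same on either strand. The joined form GAANNTTCNNGAA, with its reverse complement TTCNNGAANNTTC, holds one of each core, and its search was added after the single cores had been seen. It was in 4 windows (7.14%), of Hspd1, Hspe1 and Hsph1, and in 0.603% of all windows. These are not separate elements: the Hspd1 and Hspe1 windows overlap at the same element, and Hsph1 has overlapping windows. The member shares, those of the single cores included, therefore count some bases more than once. The ER stress element, CCAAT and CCACG with 9 bases between them, was on either strand in 4 windows (7.14%), of Calr, Dnajc3, Hsp90b1 and Pdia6, and in 0.119% of all. It contains CCAAT, which alone was on either strand in 44.6% of member and 37.4% of all windows. A match is a description of letters in these windows and shows no binding.

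The windows of Hspe1 and Hsph1, with joined heat shock elements, are shown because these genes are among those that stood highest in 1 stressed mouse, described further on. The Hspe1 window (chr1:55087898-55088197, plus strand) overlaps the annotated Hspd1 gene without reaching its start in GENCODE. It also overlaps a RefSeq window of Hspd1 (chr1:55087883-55088182, minus strand) that holds the same heat shock element. The Hsph1 window is chr5:149636287-149636586, minus strand. Capitals mark heat shock cores, and the sequences run 5′ to 3′ along the gene.
Hspe1: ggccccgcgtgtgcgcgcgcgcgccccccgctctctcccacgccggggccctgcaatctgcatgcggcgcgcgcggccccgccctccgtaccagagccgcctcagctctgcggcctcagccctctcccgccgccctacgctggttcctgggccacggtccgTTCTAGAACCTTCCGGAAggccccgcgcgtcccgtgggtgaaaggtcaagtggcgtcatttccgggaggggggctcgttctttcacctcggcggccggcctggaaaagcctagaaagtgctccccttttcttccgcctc
Hsph1: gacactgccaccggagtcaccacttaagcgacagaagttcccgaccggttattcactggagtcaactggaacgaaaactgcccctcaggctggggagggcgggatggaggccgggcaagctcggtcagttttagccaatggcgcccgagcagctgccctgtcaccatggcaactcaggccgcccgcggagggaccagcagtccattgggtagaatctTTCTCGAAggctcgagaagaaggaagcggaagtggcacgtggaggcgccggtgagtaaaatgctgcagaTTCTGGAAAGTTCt

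The windows of Hsp90b1 (chr10:86705395-86705694, minus strand), Calr (chr8:84846882-84847181, minus strand) and Pdia6 (chr12:17266339-17266638, plus strand) are shown as endoplasmic reticulum members that were not called higher after stress. Ppib of the same compartment was called higher. Capitals mark ER stress elements, of which Hsp90b1 has 2.
Hsp90b1: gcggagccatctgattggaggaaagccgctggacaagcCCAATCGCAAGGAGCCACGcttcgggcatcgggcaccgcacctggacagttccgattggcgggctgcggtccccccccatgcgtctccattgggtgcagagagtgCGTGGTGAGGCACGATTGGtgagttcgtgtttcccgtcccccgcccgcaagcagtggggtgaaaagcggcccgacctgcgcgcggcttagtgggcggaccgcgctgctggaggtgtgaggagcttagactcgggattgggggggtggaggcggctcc
Calr: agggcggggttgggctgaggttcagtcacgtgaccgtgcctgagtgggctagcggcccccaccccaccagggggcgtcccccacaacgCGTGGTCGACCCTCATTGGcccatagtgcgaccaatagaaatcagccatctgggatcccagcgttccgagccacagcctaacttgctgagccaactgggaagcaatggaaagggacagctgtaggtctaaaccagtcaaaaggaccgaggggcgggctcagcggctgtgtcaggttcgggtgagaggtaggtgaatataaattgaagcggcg
Pdia6: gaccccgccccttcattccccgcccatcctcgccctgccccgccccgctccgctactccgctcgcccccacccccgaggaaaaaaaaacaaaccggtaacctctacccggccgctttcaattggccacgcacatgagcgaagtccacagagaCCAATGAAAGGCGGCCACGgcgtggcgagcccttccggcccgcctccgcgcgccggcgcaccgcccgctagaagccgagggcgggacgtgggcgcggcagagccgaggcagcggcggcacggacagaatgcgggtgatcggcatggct

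HSP90 and its partners gave a different picture, since 1 mouse was far above the rest. Hsp90ab1 (chr17:45567775-45573271, minus strand), the constitutive cytosolic HSP90, was at 17.8, 14.4 and 15.7 in KO stress and 13.0, 14.6 and 27.8 in WT stress mice, against 19.2, 16.6 and 13.1 in KO control and 14.9, 16.0 and 13.7 in WT control mice in CD4 cells. In CD8a cells it was at 15.4, 13.3 and 13.1 in KO stress and 13.6, 13.8 and 21.9 in WT stress mice, against 19.7, 16.6 and 13.4 in KO control and 15.4, 15.8 and 12.8 in WT control mice. WT stress mouse 3 was highest in both cell types, and the other stressed mice lay within the range of the controls or just outside it. The averaged change was 0.11 ± 0.15 and -0.05 ± 0.11 and did not pass (limma, adjusted p = 0.56 and 0.7). Hsp90aa1, the inducible HSP90 (chr12:110690605-110702728, minus strand), was at 4.01, 2.58 and 3.04 in KO stress and 2.58, 3.40 and 6.46 in WT stress mice, against 3.21, 2.63 and 2.28 in KO control and 2.95, 2.62 and 2.47 in WT control mice in CD4 cells. The CD8a values of Hsp90aa1 were 3.06, 2.49 and 2.36 in KO stress and 2.20, 2.98 and 5.06 in WT stress mice, against 2.84, 2.45 and 2.08 in KO control and 2.33, 2.42 and 1.99 in WT control mice. Again WT stress mouse 3 stood highest, and KO stress mouse 1 came second. The averaged changes of 0.37 ± 0.17 and 0.30 ± 0.14 did not pass (adjusted p = 0.077 and 0.062). Within wild-type CD8a cells Hsp90aa1 was called higher (0.50, limma adjusted p = 0.043). That call was lost without any 1 of 5 mice, WT stress mouse 3 among them (adjusted p up to 0.17).

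Stip1, which links HSP70 to HSP90, and Ahsa1, which speeds the ATPase of HSP90, did pass. Stip1 was at 0.904, 0.637 and 0.674 in KO stress and 0.529, 0.749 and 1.37 in WT stress mice, against 0.542, 0.578 and 0.511 in KO control and 0.591, 0.662 and 0.501 in WT control mice in CD4 cells, and its change was 0.40 ± 0.16 there and 0.40 ± 0.13 in CD8a cells (limma, adjusted p = 0.039 and 0.011). Ahsa1 was at 0.730, 0.475 and 0.538 in KO stress and 0.605, 0.628 and 1.02 in WT stress mice, against 0.510, 0.403 and 0.424 in KO control and 0.429, 0.492 and 0.480 in WT control mice in CD4 cells and changed by 0.43 ± 0.12 and 0.32 ± 0.11 (adjusted p = 0.006 and 0.02). The CD4 call of Stip1 was lost without any 1 of 7 mice, WT stress mouse 3 among them (0.23 ± 0.11), and the CD8a call of Ahsa1 without any 1 of 4 (adjusted p up to 0.10 and 0.063). In both genes WT stress mouse 3 and KO stress mouse 1 were the 2 highest of 12 in CD4 cells. Hsph1, the HSP110 that frees ADP from HSP70, was at 1.01, 0.489 and 0.387 in KO stress and 0.328, 0.720 and 1.5 in WT stress mice, against 0.597, 0.517 and 0.410 in KO control and 0.565, 0.618 and 0.392 in WT control mice in CD4 cells. In CD8a cells Hsph1 was at 1.01, 0.495 and 0.599 in KO stress and 0.624, 0.954 and 1.42 in WT stress mice, against 0.770, 0.586 and 0.581 in KO control and 0.670, 0.703 and 0.587 in WT control mice. WT stress mouse 1 had the lowest CD4 value of all mice, and the stressed groups spanned the controls. The change of Hsph1 averaged over genotypes did not pass (adjusted p = 0.35 and 0.14). Within wild-type CD8a cells Hsph1 was called higher (0.48, limma adjusted p = 0.042). That call was lost without any 1 of 5 mice, WT stress mouse 3 among them (adjusted p up to 0.20).

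WT stress mouse 3 was the highest of the 12 mice in 18 of 51 members in CD4 cells (35.3%) and in 21 of 44 in CD8a cells (47.7%). Over all listed genes it was the highest in 6.67% and 5.33%. Its log2 value was more than 0.5 above the mean of the other 2 WT stress mice in 11 members in CD4 (21.6%) and 7 in CD8a cells (15.9%), against 1.57% and 0.807% of all listed genes. Of the 13 genes past that distance in both cell types, among the 2166 listed in both, 7 were members: Ahsa2, Fkbp4, Hsp90aa1, Hsp90ab1, Hsph1, St13 and Stip1. The other 6 were Ptges3, the p23 co-chaperone of HSP90, the class II genes Cd74, H2-Aa and H2-Ab1, Igkc and Ly6k. The B cell markers summed to 7.08 in that mouse and to 4.32 and 4.40 in WT stress mice 1 and 2 in CD4 cells, and to 6.91 in that mouse and 4.60 and 4.83 in the others in CD8a cells. The mouse was picked out after its values had been seen, so these shares are descriptions, and what made it differ was not tested.

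Without that mouse, 13 of 49 members were higher and 1 lower in the wild-type CD4 comparison, against 18 and 1 with it. The share higher was then 25.4% over all genes, and the median log2 change was 0.11 over the members and 0.13 over all genes, so the members no longer exceeded the listed genes. In CD8a cells 11 of 35 were higher without it, where 23.4% of all genes were, against 17 with it. The CD8a count was also 11 without WT control mouse 3. With WT stress mouse 3 and KO stress mouse 1 both left out, the stress effect averaged over genotypes had 12 members higher and 5 lower in CD4 cells, where 20.5% of all genes were higher. The CD8a counts were 9 higher and 3 lower, with 20.4% of all genes higher.

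Within each genotype alone, the wild-type mice had 18 of 49 listed members higher and 1 lower in CD4 cells, where 31% and 28.9% of the 2413 genes listed for that comparison were called. In CD8a cells 17 of 35 were higher and 1 lower (26.7% and 41.5% of 2108). In KO mice 9 of 34 members were higher and 1 lower in CD4 cells (19.5% and 20% of 1898), and 5 of 37 and 1 in CD8a cells (17.9% and 22.1% of 2023). The share of members higher in KO CD8a cells, 13.5%, was below that of the listed genes. Median log2 changes over members and all genes were 0.070 and 0.11 there, and 0.19 and 0.13 in KO CD4 cells. In WT mice they were 0.23 and 0.15 in CD4 and 0.26 and 0.09 in CD8a cells. Without KO stress mouse 1 the KO CD8a medians were 0.00085 and 0.089. The CD4 count in KO mice fell to 5 higher without KO stress mouse 1, KO control mouse 2 or KO control mouse 3, where 16%, 14.3% and 12.8% of all genes were higher. The CD8a count fell to 3 without KO control mouse 2, where 14% of all genes were higher. Across the 4 comparisons 52 members were listed at least once and 27 every time. Hspa8, Hspe1, Pfdn5 and Dnajc15 were among those higher in all 4, and 28 members were called in none. The shares of all listed genes called in all 4 or in none were not computed. The CD8a calls of Dnajc15 were lost without any 1 of 2 mice in the wild type (limma, adjusted p up to 0.073). In KO mice its CD8a call was lost without any 1 of 3 (adjusted p up to 0.064).

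The counts were larger in wild-type mice, but a difference between the genotypes was not shown gene by gene. The interaction term, the stress effect in KO minus that in WT mice, called 0 of 51 members in CD4 and 0 of 44 in CD8a cells, as it called 0% of all 2999 and 2851 genes. By limma 4 members in CD4 and 6 in CD8a cells had an unadjusted p under 0.05, against 9.47% and 7.16% of all genes. The smallest in CD4 cells were Fkbp2 (-0.59 ± 0.20, limma adjusted p = 0.39), Pdia3 (-0.40 ± 0.17, 0.47) and Fkbp5 (-0.64 ± 0.27, 0.47). In CD8a cells they were Cct5 (-0.37 ± 0.14, 0.65), Pfdn6 (-0.39 ± 0.17, 0.68) and Cct4 (-0.28 ± 0.12, 0.68). The interaction was negative in 42 of 51 members in CD4 cells with a median of -0.15, where that of all genes was -0.05. Without WT stress mouse 3 it was negative in 30 of 51, with a median of -0.06. In CD8a cells it was negative in 36 of 44 with a median of -0.12, where that of all genes was 0.015, and without that mouse in 29 of 44 with a median of -0.072.

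Under stress, the members on the lists for KO against WT mice were nearly all of the HSP70 and HSP90 systems. The lists held 8 members among 87 genes in CD4 cells and 5 among 99 in CD8a cells, which is 9.2% and 5.05% of those lists. By limma 33.3% and 61.6% of the listed genes were called, and 69% and 73.7% had an unadjusted p under 0.05. Of the members 0 were called in either cell type, with 0 at an unadjusted p under 0.05. With all mice, all had a negative log2 change in KO mice, between -0.31 for Ahsa1 and -0.13 for Hsp90ab1 in CD4 cells, and between -0.45 for Hsph1 and -0.20 for Hsp90ab1 in CD8a cells. The smallest p in CD4 cells belonged to Hspa8 (-0.27 ± 0.14, limma adjusted p = 0.11), Ahsa1 (-0.31 ± 0.24, 0.27) and Ahsa2 (-0.30 ± 0.35, 0.45). In CD8a cells they were those of Hspe1 (-0.24 ± 0.14, 0.14), Hspa8 (-0.21 ± 0.13, 0.17) and Hsph1 (-0.45 ± 0.33, 0.23). Group means were 16.0 ± 1.68 in KO stress and 18.5 ± 8.13 in WT stress CD4 cells for Hsp90ab1, and 3.21 ± 0.727 against 4.14 ± 2.05 for Hsp90aa1 (SD, n = 3).

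The direction depended on WT stress mouse 3. Without it, 6 of the 8 members in CD4 cells had a positive change, such as Hsp90ab1 at 0.20 ± 0.09, Stip1 at 0.18 ± 0.23 and Hsp90aa1 at 0.09 ± 0.19. Hspa8 and Ahsa1 stayed negative, at -0.18 ± 0.12 and -0.09 ± 0.22. In CD8a cells Hsp90ab1 and Hsp90aa1 turned to 0.02 ± 0.08 and 0.03 ± 0.18, and Hspe1, Hspa8 and Hsph1 stayed negative.

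**Figure D4:**
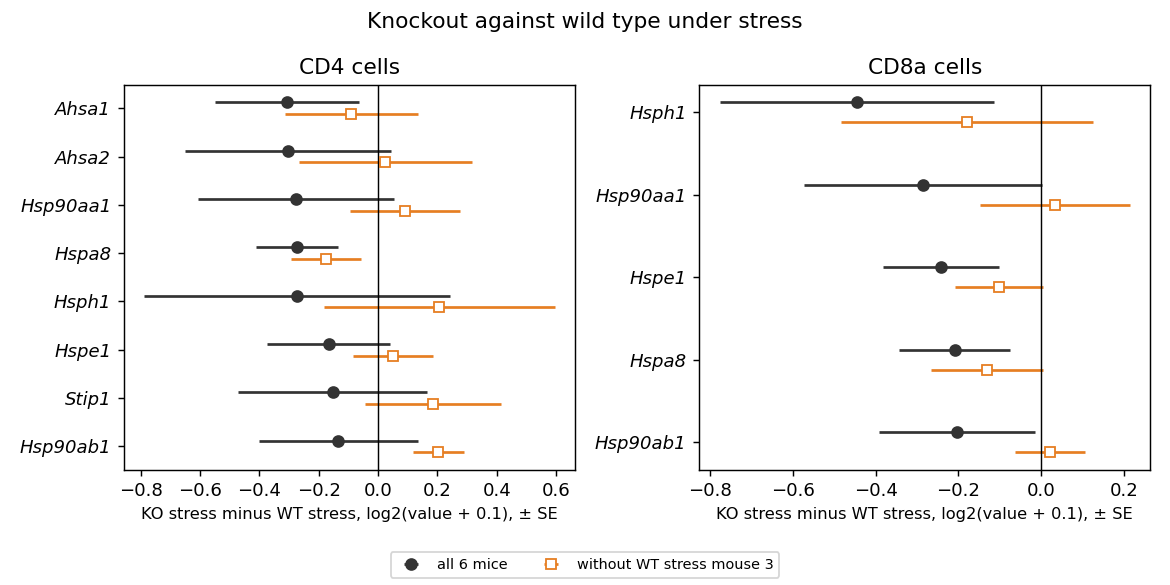
KO stress minus WT stress difference (log2(value + 0.1), with SE from limma) for the members listed for that comparison, in CD4 cells (left) and CD8a cells (right). Filled circles use all 6 mice and open squares leave out WT stress mouse 3: without it, 6 of 8 CD4 members are above 0.

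Without stress, the 11 members listed for KO against WT mice in CD4 cells included Calr, Pdia3, Hsp90b1 and Ppib of the endoplasmic reticulum, and 9 of the 11 were higher on average in KO mice. By limma 0 were called and 3 had an unadjusted p under 0.05. Of the 496 listed genes 21.8% were called and 56.2% had an unadjusted p under 0.05. Ppib was at 3.71, 3.28 and 3.00 in KO control and 2.90, 2.65 and 2.61 in WT control mice, without overlap (0.28 ± 0.09, limma adjusted p = 0.063). Calr was at 3.67, 3.26 and 2.95 in KO control and 2.89, 2.82 and 2.62 in WT control mice, also without overlap (0.23 ± 0.09, adjusted p = 0.078). Dnaja1 was lower at 1.72, 1.48 and 1.38 in KO control, against 2.07, 1.80 and 1.86 in WT control mice (-0.31 ± 0.11, adjusted p = 0.069). The median over these members was 0.22, beside 0.20 over all 496 genes, and with each mouse centred on its median gene it was -0.04, with 0 called higher and 2 lower. Without KO control mouse 3, 7 of the 11 were called higher, as were 41.1% of all 496 genes. KO control mouse 1 was the highest of the 12 mice in 11 of 51 members in CD4 cells (21.6%) and in 17.2% of all listed genes.

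In CD8a cells 7 members were listed for KO against WT mice without stress, and 0 were called by limma (8.25% of 303 genes). An unadjusted p under 0.05 was found for 1 member and for 55.1% of the 303 genes. Ppib had an unadjusted p under 0.05, at 3.32, 2.95 and 2.64 in KO control and 2.61, 2.48 and 2.5 in WT control mice (0.22 ± 0.09, adjusted p = 0.089). Next were Ahsa1 (-0.26 ± 0.13, 0.14) and Dnajb1 (-0.25 ± 0.13, 0.14). Cct3 lies 2.40 Mb from S100a9 on chromosome 3, nearest of the members. It was at 1.48, 1.35 and 1.22 in KO control and 1.08, 1.22 and 1.07 in WT control CD8a cells, and at 1.32, 1.09 and 1.02 in KO control and 1.28, 1.08 and 1.00 in WT control CD4 cells, and the authors did not list it for either genotype comparison.

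The 2 cell types differed in several chaperones. Over the 12 mice, 6 of 41 members were higher and 12 lower in CD8a than in CD4 cells of the same mouse, where 17.3% of 2166 genes were higher and 35.5% lower. Dnajc15 stood out, at 3.85 ± 0.134, 4.19 ± 0.197, 3.25 ± 0.266 and 3.53 ± 0.290 in CD8a cells of KO stress, WT stress, KO control and WT control mice. CD4 cells had 1.47 ± 0.0751, 1.52 ± 0.130, 1.03 ± 0.0551 and 1.03 ± 0.0917 in the same groups (SD, n = 3). The ranges of the cell types were far apart, with a log2 difference of 1.5 ± 0.04 (limma, adjusted p = 3.9e-11). Hspe1 (0.38 ± 0.03), Hsph1 (0.28 ± 0.07) and Dnajc9 (0.23 ± 0.05) were also higher in CD8a cells, as was Dnaja1 (0.09 ± 0.03).

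Lower in CD8a cells were Pdia6 (-0.37 ± 0.05) and Dnajb11 (-0.31 ± 0.04) of the endoplasmic reticulum, Hspb11 (-0.29 ± 0.04), which despite its name is an intraflagellar transport protein, and St13 (-0.27 ± 0.03), the HSP70-interacting protein HIP. Hsp90aa1 (-0.22 ± 0.04) and Ppib (-0.16 ± 0.03) were also lower. Hspa8 (0.02 ± 0.03, adjusted p = 0.63), Ppia (-0.01 ± 0.03) and Dnajc5 (0.01 ± 0.06) did not pass. The stress effect itself was not shown to differ between the cell types: by limma 0 of 41 members and 0% of 2166 genes were called. An unadjusted p under 0.05 was found for 5 members and for 6.6% of the 2166 genes. The smallest p belonged to Dnajc15 (-0.25 ± 0.07, adjusted p = 0.49), Dnajc8 (-0.18 ± 0.06, 0.57) and Dnaja1 (-0.18 ± 0.07, 0.69). All were negative, so the difference of stressed minus control mice was lower in CD8a than in CD4 cells.

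**Figure D5:**
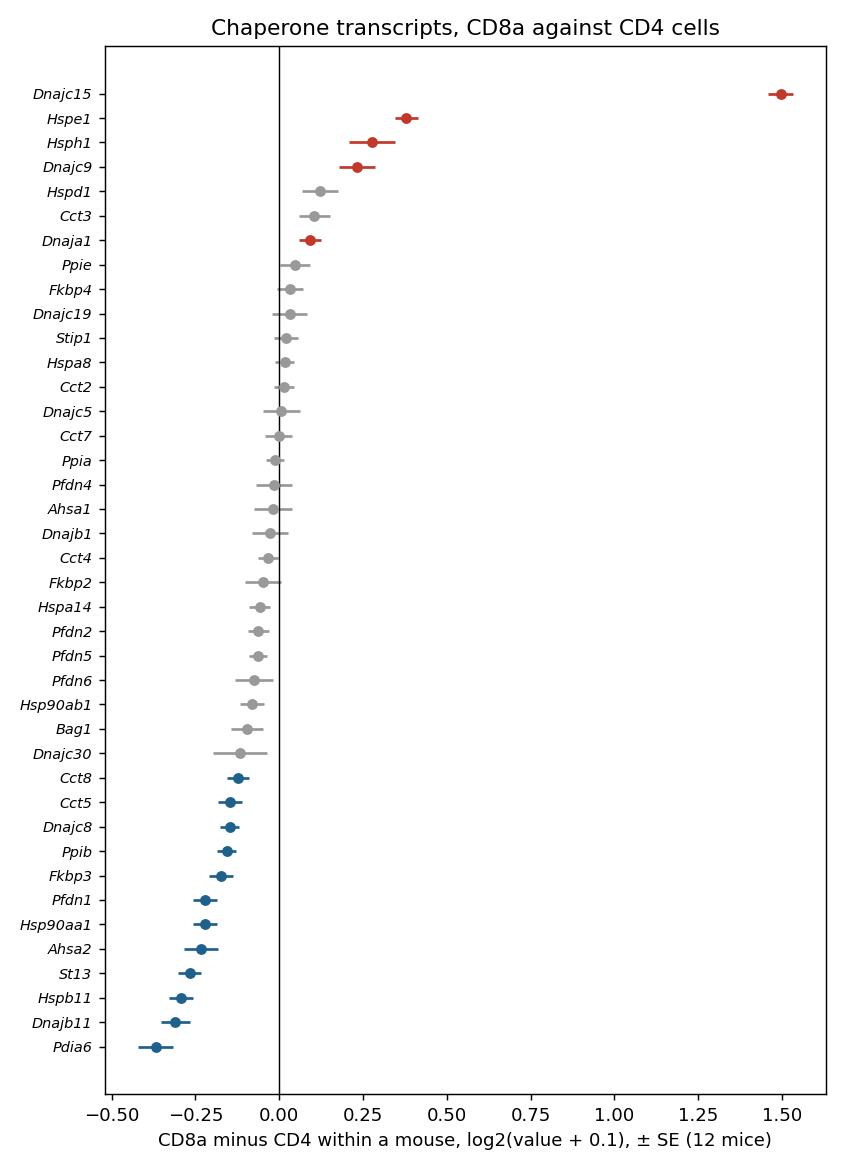
CD8a minus CD4 difference within a mouse (log2(value + 0.1), mean over 12 mice with SE from limma) for the members listed in both cell types but 1, ordered by size. Red marks higher and blue lower in CD8a cells at an adjusted p under 0.05, and Dnajc15 at 1.5 lies far from the others.

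Genes that work beside the members were described from lists by name. Of 30 listed co-chaperones and assembly factors outside the naming rule, 13 were higher and 3 lower after stress in CD4 cells, and 12 and 3 in CD8a cells (limma, stress averaged over genotypes), beside 25.3% and 23.8% of all listed genes higher. The higher ones included Naca and Btf3 of the nascent chain complex, the mitochondrial chaperones Timm8b and Timm13, and the tubulin cofactor Tbca. The lower ones included Cdc37l1 and Nktr in both cell types. Of 12 listed genes of the unfolded protein response and endoplasmic reticulum protein handling, 7 and 5 were higher and 0 lower. Those higher in both cell types, Dad1, Manf, Sec61b, Ssr2 and Ssr4, are, apart from the secreted Manf, parts of translocation and glycosylation complexes. Of the immediate-early genes that tissue dissociation can raise, Jund and Klf2 were higher among 8 and 7 listed, a share near that of all listed genes, and 0 were lower. None of the 3 and 4 listed glucocorticoid response genes was called, and their medians were -0.02 and -0.15.

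Scaling bears on all stress counts. Centring each mouse on its median listed gene moved the median stress effect over all genes to 0.16, against 0.05 as deposited, in CD4 cells, and to 0.21, against 0.03, in CD8a cells. Members called higher then numbered 28 and 34 and lower 2 and 1, beside 1272 higher and 837 lower of all CD4 genes and 1519 and 954 of all CD8a genes. Relative to the median gene, a difference that centring cannot alter, the median member lay 0.10 higher in CD4 and 0.10 higher in CD8a cells. Within WT mice that difference was 0.081 and 0.165, and within KO mice 0.067 and -0.038. It also depended on single mice. Without WT stress mouse 3 and KO stress mouse 1 the averaged medians were 0.075 over members and 0.037 over all genes in CD4 cells. In CD8a cells they were 0.046 and 0.014.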

How the data were processed

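Spleens were dissociated, erythrocytes lysed and libraries made with the 10x 3′ v2 kit, per the labels' protocols. The submitters' processing notes name Cell Ranger 2.1.1 and mm10. The deposited tables hold a signal on a linear scale, each gene's average expression in 1 cell type of 1 mouse, per the file headers. No source used here says how cells were typed or genes selected. Depth is unknown, so no counting interval is given. Columns without a mouse numbered 0.

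In R 4.3.3, limma 3.58.1 was run on log2(value + 0.1) (trend, two-sided, Benjamini-Hochberg over all genes of a fit, called under 0.05), which understates changes of low genes. Genes had been selected by the authors on these mice, so false calls need not be held to that share. The labels give no batch. Errors of changes are SE. The fits were tested on simulated data. The fits were repeated with a pseudocount of 0.01 or 1, without the lowest 25% of genes, with centring, after dropping ribosomal and mitochondrial genes, without the trend, with all listed genes or all groups in 1 fit, with the replicate block, and without each mouse.

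Members and lists were chosen with earlier results of these data known. Genes given per mouse were the 2 highest, up to 10 called in both cell types, up to 4 against the majority and a set of HSP70, HSP90 and Fkbp5 genes. Stip1, Ahsa1 and Hsph1 were added after their values were seen. Where under 3 were called, the 3 smallest p are named. Positions are from GENCODE M21. Counts include 1 member and 1 other gene that are not reported here.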

Additional observations from a re-analysis of the deposited data

Results flagged for a closer look

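Fkbp2, a prolyl isomerase of the endoplasmic reticulum, was singled out because in CD4 cells the KO mice were all below the WT mice under stress and all above them without stress. It was at 0.348, 0.310 and 0.270 in KO stress and 0.395, 0.383 and 0.376 in WT stress mice, a log2 difference of -0.247. Without stress it was at 0.550, 0.337 and 0.346 in KO control and 0.293, 0.328 and 0.272 in WT control mice. The interaction term of -0.59 ± 0.20 had an unadjusted p of 0.011 and did not pass (limma, adjusted p = 0.39). Within wild-type CD4 cells alone its stress effect passed (0.29 ± 0.11, adjusted p = 0.039), and without any 1 of 5 mice it did not. In CD8a cells the interaction was -0.11 ± 0.23 and the groups overlapped.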

How the results depend on the processing

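Each of 154 gene-level results was recomputed under the alternatives, giving 2635 values, of which 2407 kept their direction and side of the threshold, 172 lost the call, 30 gained one and 26 changed sign. With each mouse centred on its median gene, members higher numbered 32 in CD8a WT stress, and 28 in CD4 and 34 in CD8a cells with the genotypes averaged, where 1 was lower in CD8a cells. Members lower in KO controls then numbered 2 in each cell type. With ribosomal and mitochondrial genes removed, 1 member was lower in CD8a cells. With all genes listed for a cell type in the fit, 2 members were lower in CD4 WT, CD4 KO and CD8a WT stress. With all 4 groups in 1 fit, 2 were higher in CD4 KO controls. Without WT stress mouse 3 and KO stress mouse 1 together, an alternative chosen after seeing the data, 5 were lower in CD4 and 9 higher in CD8a cells.

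Leaving out 1 mouse at a time, members higher ranged from 13 to 23 in CD4 WT stress, 5 to 11 in CD4 KO stress, 11 to 18 in CD8a WT stress and 3 to 6 in CD8a KO stress, where 1 to 2 were lower. They ranged from 0 to 7 in CD4 KO controls, and with the genotypes averaged 12 to 16 were higher and 1 to 2 lower in CD8a cells. The CD4 and CD8a averages of a mouse share a library, and the number of cells behind each limits its precision by an unknown amount.

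The sign changed mostly in HSP90 genes, and the cause was not tested. Hsp90ab1 in CD4 cells, for WT stress against WT control, ranged from -0.10 to 0.44 with 1 mouse left out and changed sign without WT stress mouse 3. Hsp90b1 in CD4 cells, for WT stress against WT control, ranged from -0.041 to 0.25 with 1 mouse left out and changed sign without WT stress mouse 3. Calr in CD4 cells, for KO against WT control, was -0.035 with centring. Hsp90ab1 in CD4 cells, for KO against WT control, ranged from -0.0087 to 0.27 with 1 mouse left out and changed sign without KO control mouse 1 and was -0.15 with centring. Ahsa2 in CD4 cells, for KO against WT stress, ranged from -0.65 to 0.025 with 1 mouse left out and changed sign without WT stress mouse 3. Hsp90aa1 in CD4 cells, for KO against WT stress, ranged from -0.56 to 0.090 with 1 mouse left out and changed sign without WT stress mouse 3. Hsp90ab1 in CD4 cells, for KO against WT stress, ranged from -0.34 to 0.20 with 1 mouse left out and changed sign without WT stress mouse 3 and was 0.00060 with centring. Hsp90ab1 in CD8a cells, for WT stress against WT control, ranged from -0.093 to 0.25 with 1 mouse left out and changed sign without WT stress mouse 3. Hsp90aa1 in CD8a cells, for KO stress against KO control, ranged from -0.0077 to 0.21 with 1 mouse left out and changed sign without KO stress mouse 1 (-0.0059) and without KO control mouse 3 (-0.0077). Hsp90ab1 in CD8a cells, for KO against WT control, was -0.035 with centring. Hsp90aa1 in CD8a cells, for KO against WT stress, ranged from -0.55 to 0.033 with 1 mouse left out and changed sign without WT stress mouse 3. Hsp90ab1 in CD8a cells, for KO against WT stress, ranged from -0.32 to 0.022 with 1 mouse left out and changed sign without WT stress mouse 3. Hsp90aa1 in CD4 cells, for the interaction, ranged from -0.56 to 0.086 with 1 mouse left out and changed sign without WT stress mouse 3. Hsp90ab1 in CD4 cells, for the interaction, ranged from -0.46 to 0.084 with 1 mouse left out and changed sign without WT stress mouse 3. Hsp90ab1 in CD4 cells, for the averaged stress effect, ranged from -0.061 to 0.21 with 1 mouse left out and changed sign without WT stress mouse 3 and was -0.10 without WT stress mouse 3 and KO stress mouse 1. Hsp90b1 in CD4 cells, for the averaged stress effect, was 0.033 with centring. Hsp90ab1 in CD8a cells, for the averaged stress effect, ranged from -0.16 to 0.016 with 1 mouse left out and changed sign without WT stress mouse 1 (0.0068) and without WT stress mouse 2 (0.0028) and without KO control mouse 1 (0.016) and was 0.14 with centring and 0.00084 with ribosomal and mitochondrial genes removed and was -0.20 without WT stress mouse 3 and KO stress mouse 1. Hspa1b in CD8a cells, for the averaged stress effect, was 0.075 with centring.

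The replicate block, fitted because the labels number the mice alike in each group, gave 3 members higher (Calr, Hsp90b1 and Ppib) and 1 lower (Dnaja1) in CD4 KO controls, and 2 lower in CD8a KO stress. The numbers did not pair the mice: same-numbered pairs correlated between -0.24 and 0.24 in their deviations from the group mean, 5 of 36 above 0.1, and over both cell types a mouse correlated best with its own number in another group in 12 of 36 cases.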

Other observations

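The stressed mice that stood apart in heat shock genes also stood apart, in opposite directions, in 2 of the genes known to respond to glucocorticoids. Tsc22d3, or GILZ, which glucocorticoids induce in lymphocytes, was at 1.76, 0.824 and 1.08 in KO stress and 1.76, 2.00 and 0.948 in WT stress mice in CD4 cells, against 0.913, 1.35 and 1.07 in KO control and 1.57, 1.71 and 1.67 in WT control mice. In CD8a cells it was at 2.07, 0.768 and 1.28 in KO stress and 1.87, 2.04 and 1.11 in WT stress mice, against 0.935, 1.43 and 1.16 in KO control and 1.69, 1.47 and 1.94 in WT control mice. It was thus low in WT stress mouse 3 and high in KO stress mouse 1 within their groups, in both cell types. Ddit4, another glucocorticoid-induced gene, followed the same order in CD4 cells, at 1.2, 0.648 and 0.693 in KO stress and 1.03, 1.15 and 0.668 in WT stress mice. Fkbp5, also induced by glucocorticoids, was lowest of its group in WT stress mouse 3 but not raised in KO stress mouse 1, at 0.402, 0.317 and 0.520 in KO stress mice. Of the members, WT stress mouse 3 led in HSP90 and its partners, and KO stress mouse 1 stood above its group in both cell types in Hsph1, Dnaja1 and Dnajb1.

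Rbm3, an RNA-binding protein known to rise in the cold, was lowest in WT stress mouse 3 of its group. It was at 3.41, 3.48 and 3.36 in KO stress and 4.69, 3.44 and 2.32 in WT stress CD4 cells, and at 2.83, 3.16 and 2.85 in KO stress and 4.10, 3.14 and 2.13 in WT stress CD8a cells. WT control mouse 2 was as low, at 2.93, 2.14 and 3.44 over WT control mice 1, 2 and 3 in CD4 cells, without high HSP90 values. Hemoglobin transcripts stood apart in KO stress mouse 1, where erythroid markers summed to 15.9 in CD8a cells, against 1.39 and 5.66 in the other KO stress mice. In CD4 cells they summed to 5.08 in that mouse, 1.74 and 1.70 in the other KO stress mice, and 5.52 and 4.06 in KO control mice 1 and 2. Between genotypes limma called hemoglobin genes, as given above, and Tsc22d3, lower in KO than in WT control CD4 cells. These genes were picked after their values were seen, and how single mice stood apart was not tested.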
